A study of Arabidopsis thaliana with 12 samples.

Results

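The genes described here are 10 Arabidopsis thaliana beta-glucosidases of the BGLU family, glycoside hydrolases that split glucose from small plant glucosides. They are the genes whose probe set carries a single gene symbol of the form BGLU with a number and whose mean log2(signal + 16) over 12 arrays lay above the lowest 30% of non-control probe sets. Of 20 such single-gene probe sets, 10 met that limit: BGLU15, BGLU16, BGLU24, BGLU25, BGLU33, BGLU40, BGLU42, BGLU44, BGLU45 and BGLU46, among 15923 probe sets tested in all. The limit stood at a mean of 6.38. The member nearest to it was BGLU33 at 6.77, and BGLU47 lay just outside at 6.27.

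Plants store many compounds as inactive glucosides and release them with beta-glucosidases. Abscisic acid (ABA), which plants make under drought and in maturing seeds, is kept in the vacuole and the endoplasmic reticulum (ER) as a glucose ester, and BGLU18 and BGLU33 free it again. Other members act on lignin precursors, flavonol glycosides, coumarins and glucosinolates, and PYK10, a very abundant root beta-glucosidase, fills the ER bodies, defence compartments of Brassicaceae.

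The RNA came from whole seedlings, either wild type of the accession Ws or the mutant rop10-1, in the gene of the ROP10 GTPase. After 7 days in shaken liquid medium with 3% sucrose they were given 1 µM ABA dissolved in DMSO, or DMSO alone as mock, for 4 hours. Each of the 4 combinations of genotype and treatment was hybridised to 3 Affymetrix ATH1 arrays, which are biological replicates numbered from 1 to 3 in each group, and the small number of arrays limits the precision. In whole seedlings, fewer cells of a type and less RNA per cell cannot be told apart.

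The signal is the deposited probe set intensity, and its 2% trimmed mean was 500.04 to 500.048 on every array. Of 15 genes listed as ABA markers, 5 were measured, and all 5 rose in both genotypes, by 5.70 on average for LEA4-5, 3.57 for COR15A, 2.04 for LTI30, 1.78 for COR15B and 1.13 for COR47 (log2, limma). LEA4-5 had mock means of 17.1 in Ws and 9.6 in rop10-1, below the low limit, a signal of 67.1. It was tested only because its ABA arrays were high. Under ABA, COR15B had -1.16 in rop10-1 minus Ws (adjusted p = 0.264, 0.0391 in a fit that takes the replicate number as a block). ROP10 itself was not analysed here, since no probe set in the table used carries its name alone. Of the organ and cell type markers, 2 of 4 leaf mesophyll genes (LHCB4.1 and LHCB4.2, of the photosynthetic antenna) were measured, with a summed signal of 13540 to 19190 over the arrays. Of 4 root hair genes, the expansins EXPA7 and EXPA18 were measured, with 209.3 to 344.5. Of 5 guard and myrosin cell markers, FMA and AT1G22690 were measured, and their summed signal was 1328 to 1932 in the mock groups and 527 to 1168 with ABA. AT1G22690 fell (averaged log2 fold change -1.17, adjusted p = 0.00269, in Ws alone 0.135 and 0.0419 with the block), while FMA had -0.04 (adjusted p = 0.838). No marker of the epidermis list of 3 was measured. The log2 ratio of the 3' to the 5' control probe set of ubiquitin, a sign of RNA integrity, was 0.926 ± 0.105 over the 6 mock arrays (SD) and 0.759 ± 0.087 over the 6 ABA arrays. For the GAPDH controls the ratio was -0.439 ± 0.084 in mock and -0.457 ± 0.105 with ABA. For those of actin it was 2.406 ± 0.224 in mock and 2.309 ± 0.181 with ABA. The part of these ratios and of AT1G22690 in the results on ABA was not tested.

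BGLU24 had the largest response to ABA of the 10 genes. By sequence it belongs with BGLU25 to the clade of PYK10, the ER body enzyme. In Ws mock its signal was 99.5, 38.5 and 42.5, and in Ws ABA it was 1037.4, 366.9 and 513.8. In rop10-1 mock it was 71.1, 46.4 and 26.3, and in rop10-1 ABA it was 973.9, 711.6 and 426. Every ABA array lay above every mock array, and the group means went from 60.2 ± 34.1 to 639 ± 352 (SD, n = 3 each) in Ws and from 47.9 ± 22.4 to 704 ± 274 in rop10-1.

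The log2 fold change of BGLU24 was 3.06 (SE 0.42, limma adjusted p = 0.000808) in Ws and 3.48 (SE 0.42, adjusted p = 0.000325) in rop10-1, 8.34-fold and 11.1-fold on the log2(signal + 16) scale, which understates the change of a gene that starts near the pseudocount. Over the 6 mock arrays its mean log2(signal + 16) was 6.05, below the low limit of 6.38, and over the 6 ABA arrays it was 9.32, so BGLU24 was tested only because its ABA arrays were high. Among all 15923 tested probe sets it ranked 27th by increase in Ws and 25th in rop10-1. Arrays that share a replicate number in their titles deviated together, so differences were also taken within a number. These were 2.81 to 3.19 in Ws and 3.39 to 3.54 in rop10-1.

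**Figure D1:**
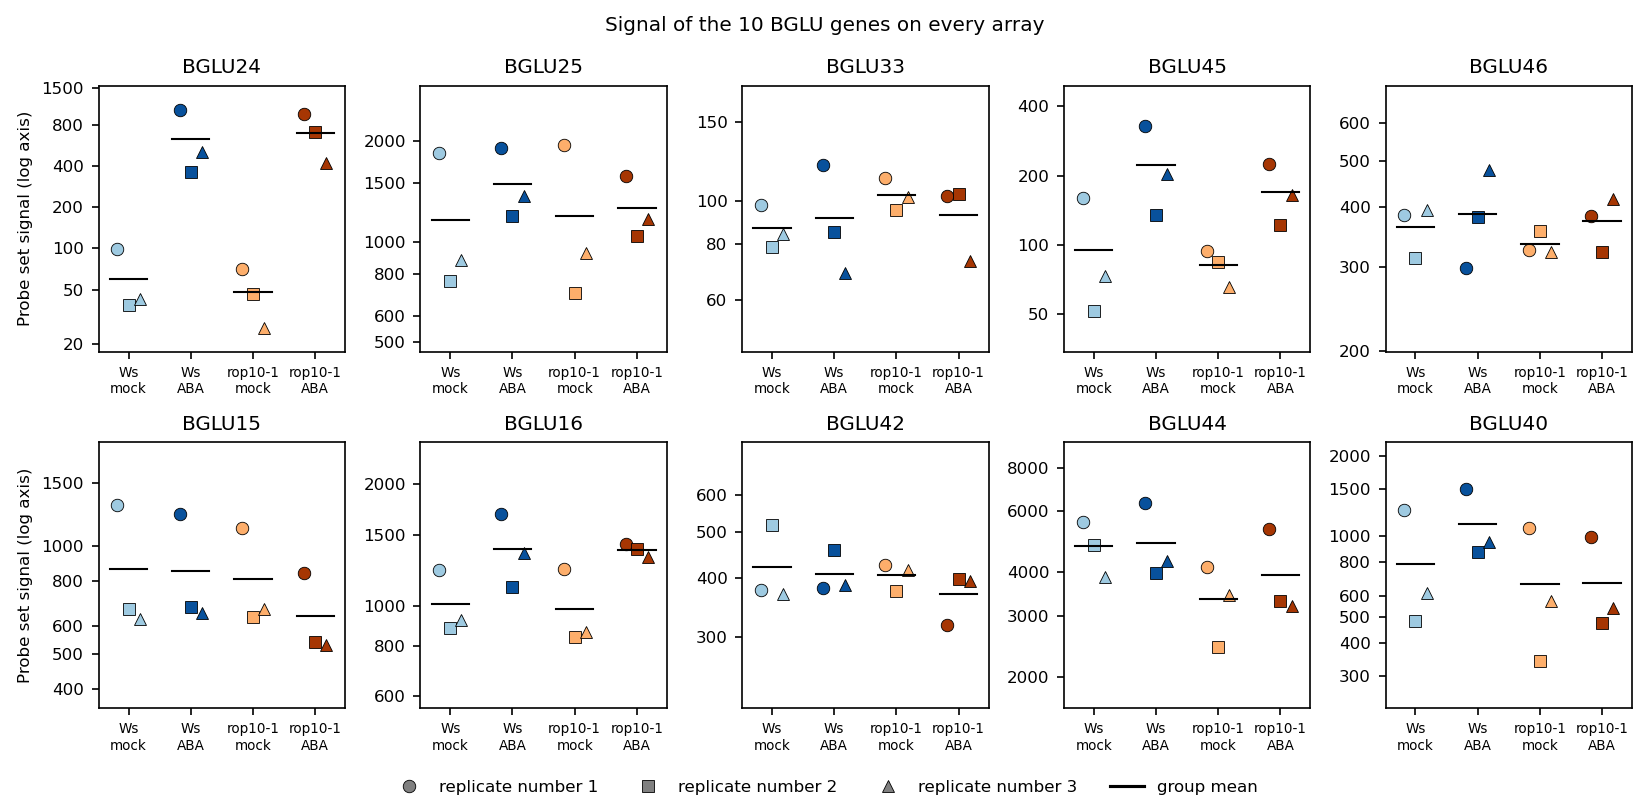
Probe set signal (log axis, range differing by panel) of the 10 BGLU genes on each of the 12 arrays, by group, with the marker shape giving the replicate number and the bar the group mean. BGLU24 is the gene whose 6 ABA arrays all lie above its 6 mock arrays, and in 7 panels the array numbered 1 is the highest of every group.

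Of the relatives of BGLU24 in this clade, BGLU25 and PYK10 are given here, and they had other values. BGLU25 read 1838.9, 761.2 and 881.7 in Ws mock against 1906, 1191.7 and 1366.9 in Ws ABA, and 1947.3, 703.6 and 923.2 in rop10-1 mock against 1567, 1041.5 and 1171.8 in rop10-1 ABA. The groups overlapped in both genotypes, with a fold change of 0.44 (SE 0.38) in Ws and 0.19 (SE 0.38) in rop10-1, neither of them called. Averaged over both genotypes BGLU25 had 0.32 (95% interval -0.27 to 0.90, adjusted p = 0.482). Without all arrays numbered 1 the average was 0.54 and passed the threshold (adjusted p = 0.0235). PYK10 is listed in the probe table under that name and is therefore not a member. It had 14100 ± 488 in Ws mock and 13290 ± 271 in Ws ABA, without overlap. In rop10-1 it had 13180 ± 1080 in mock and 14290 ± 1780 with ABA, with overlap. The fold change of PYK10 was -0.09 (SE 0.10) in Ws and 0.11 (SE 0.10) in rop10-1, neither of them called. On average it was 0.01 (95% interval -0.14 to 0.16, adjusted p = 0.924).

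The next gene along the chromosome after BGLU24 is AT5G28520, a gene of a jacalin-type lectin. Its signal went from 63.2 ± 32.2 to 2493 ± 981 in Ws and from 74.3 ± 51.9 to 2664 ± 655 in rop10-1, log2 fold changes of 5.0 (SE 0.46) and 5.05 (SE 0.46). As for BGLU24, the mock arrays of AT5G28520 alone averaged below the low limit on the log2 scale. It was therefore tested only because its ABA arrays were high. The gene on the other side, AT5G28500, had -0.28 (SE 0.16) in Ws and -0.40 (SE 0.16) in rop10-1 and was not called. AT5G28500 averaged -0.34 over both genotypes (adjusted p = 0.0605, 0.0262 with the block). The log2 ratio of BGLU24 to AT5G28520 was lower with ABA in 6 of 6 same-numbered pairs, by -1.76 on average. This pair was picked after the values had been seen, so the ratio is a description and carries no test.

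BGLU45 and BGLU46 lie side by side, and both enzymes hydrolyse glucosides of monolignols, the building blocks of lignin. BGLU45 read 160.3, 51.4 and 73.2 in Ws mock against 327, 134.6 and 202.8 in Ws ABA. In rop10-1 it read 94.3, 84.3 and 65.7 in mock against 223.8, 121.7 and 164.3 with ABA. The rop10-1 groups did not overlap, while the array numbered 1 of Ws mock lay above the lowest Ws ABA array.

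Averaged over both genotypes, BGLU45 rose by 1.02 on the log2 scale (SE 0.26, 95% interval 0.47 to 1.58, limma adjusted p = 0.017), about 2.03-fold, and it was higher with ABA in 6 of 6 same-numbered pairs. Within a genotype it missed the threshold, with 1.14 (SE 0.36, adjusted p = 0.0881) in Ws and 0.91 (SE 0.36, adjusted p = 0.184) in rop10-1. With the replicate number as a block both passed (adjusted p = 0.00302 and 0.0118). In Ws that blocked call held with each of the 12 arrays left out in turn. In rop10-1 it was lost without rop10-1 mock 1, rop10-1 mock 3 or rop10-1 ABA 3. Without the block, BGLU45 also passed in Ws when Ws mock 1 was left out (adjusted p = 0.0147), and its average failed when all arrays numbered 3 were left out (adjusted p = 0.225).

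BGLU46, the tandem neighbour, read 385.9, 312.8 and 393.9 in Ws mock against 298.9, 381.4 and 478.7 in Ws ABA. In rop10-1 it read 326.1, 356.8 and 322.6 in mock against 382.6, 322.5 and 417.1 with ABA. These groups overlapped, and the averaged fold change was 0.10 (95% interval -0.16 to 0.37, adjusted p = 0.613). The log2 ratio of BGLU45 to BGLU46 was higher with ABA in 6 of 6 pairs, by 0.60 to 1.31 (mean 0.92). This ratio, too, was chosen after the values had been seen and carries no test.

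**Figure D2:**
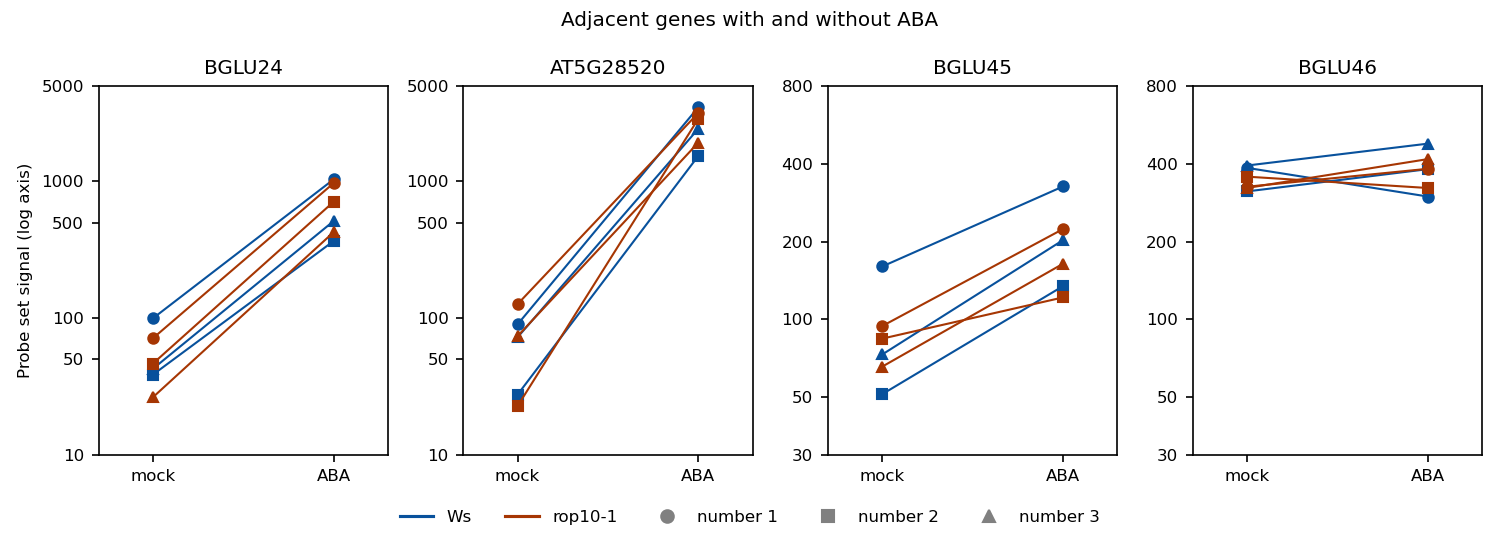
Signal (log axis) with mock and ABA for 2 pairs of adjacent genes, BGLU24 with AT5G28520 and BGLU45 with BGLU46, with a line for each same-numbered pair of arrays in Ws (blue) and rop10-1 (brown). All 6 lines climb for the first 3 genes, and those of BGLU46 run both ways.

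The other side of the monolignol glucoside balance is glucosylation. Of 8 genes in a list of monolignol synthesis and glucosylation, 2 were measured, and 1 of them fell in each genotype. UGT72E1, a glucosyltransferase of this list, went from 1353 ± 169 to 282.9 ± 88.8 in Ws and from 1415 ± 196 to 653.9 ± 367 in rop10-1, with -1.73 (SE 0.22, adjusted p = 0.000215) on average. UGT72E2, of the same small family, had -0.10 (SE 0.10, adjusted p = 0.557) and was not called. GT72B1, a glucosyltransferase of phenolic compounds outside this list, went the other way, with 1.03 (SE 0.24) on average. It was looked up by its likeness to BGLU45. The fall of UGT72E1 therefore does not give the direction of glucosylation as a whole. Monolignol glucosides themselves were not measured.

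BGLU33 is the vacuolar enzyme that releases ABA from its glucose ester. It read 98.1, 78.9 and 84.4 in Ws mock against 120.4, 85.5 and 69.2 in Ws ABA. In rop10-1 it read 112.7, 95.3 and 102.1 in mock against 102.7, 103.6 and 73.4 with ABA. The groups overlapped throughout, with an averaged fold change of -0.05 (95% interval -0.34 to 0.24, adjusted p = 0.852). That interval leaves out a change of 1.39-fold, the size seen for BGLU16, but its signal was also the nearest to the low limit.

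From a list of 15 genes that make, glucosylate or degrade ABA, 3 were measured, all of them glucosyltransferases, and their median fold change was 0.17 against -0.05 over all tested probe sets. UGT71C5, which joins glucose to ABA, went from 413.5 ± 13.8 to 248.7 ± 26.6 in Ws and from 421.3 ± 15.5 to 311.5 ± 37.5 in rop10-1. It fell by 0.70 in Ws (SE 0.12, adjusted p = 0.00399) and by 0.56 on average (SE 0.09, adjusted p = 0.000809). The change in rop10-1 was -0.42 (SE 0.12), which missed the threshold (adjusted p = 0.0642) and passed it with the block (0.0354). UGT71B6, which also glucosylates ABA, had 0.69 in rop10-1 (SE 0.32, adjusted p = 0.273, 0.0122 with the block) and 0.48 on average (SE 0.23, adjusted p = 0.189, 0.00777 with the block). Its mock means were 61.7 in Ws and 60.3 in rop10-1, below the low limit, a signal of 67.1. With ABA they were 76.6 and 107, so UGT71B6 was tested only because its ABA arrays were higher. AT3G21790 had 0.17 (SE 0.12). BGLU18, the ER enzyme of ABA release, had no single-gene probe set in the table used here and was not analysed here.

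BGLU16 had the remaining call with ABA. Its signal was 1230.4, 884.2 and 922.8 in Ws mock against 1694.9, 1118.8 and 1353.6 in Ws ABA. In rop10-1 it was 1238.4, 842.1 and 866.3 in mock against 1429, 1383.1 and 1325.4 with ABA, where the groups did not overlap. Averaged over both genotypes BGLU16 rose by 0.48 (SE 0.14, adjusted p = 0.0332), about 1.39-fold, in 6 of 6 pairs.

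This average for BGLU16 stood close to the threshold: it passed with 3 of the 12 arrays left out and failed with each of the other 9 (adjusted p of 0.057 to 0.0876). It also failed without all arrays numbered 2 (adjusted p = 0.167) or numbered 3 (0.301). With the replicate block it was 0.00123 and held with every array left out. Within a genotype BGLU16 was not called (adjusted p = 0.218 in Ws and 0.163 in rop10-1), and it was called with the block (0.0245 and 0.0132), which was lost without 5 of the 12 arrays in Ws and without 4 in rop10-1.

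BGLU15, BGLU42, BGLU44 and BGLU40 had no call with ABA in the fit without the block. BGLU15 hydrolyses flavonol glycosides, and its averaged fold change was -0.16 (95% interval -0.68 to 0.35). BGLU42 acts on coumarin glucosides in roots and takes part in induced resistance and iron acquisition. It ranged from 319.1 to 517.3 over all 12 arrays and had -0.08 (95% interval -0.32 to 0.16).

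BGLU44 acts on mannosides in vitro and had 0.12 (95% interval -0.26 to 0.51). BGLU40 read 1259.8, 482.9 and 612.9 in Ws mock against 1501.1, 875.3 and 951 in Ws ABA. In rop10-1 it read 1072, 342.4 and 572.5 in mock against 995.2, 474 and 540.2 with ABA, so that the groups overlapped in both genotypes. Its fold change was 0.57 (SE 0.43, adjusted p = 0.529, 0.0205 with the block) in Ws and 0.09 (SE 0.43) in rop10-1, and 0.33 on average (adjusted p = 0.526, 0.0333 with the block). The blocked call in Ws was lost without Ws mock 2, Ws mock 3, Ws ABA 2 or Ws ABA 3, and that of the average without 7 of the 12 arrays.

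**Figure D3:**
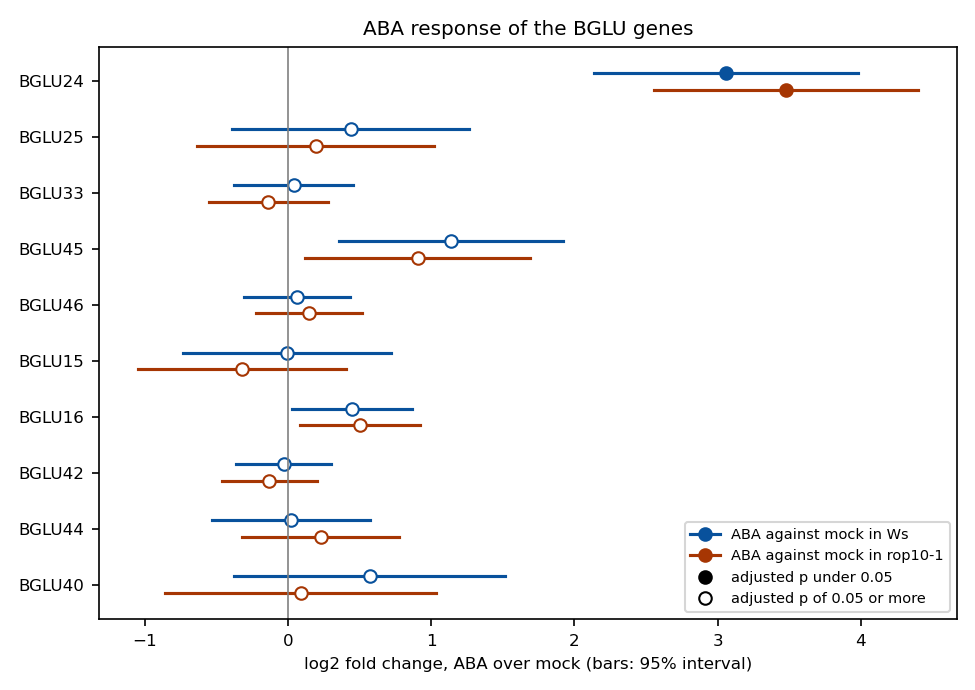
Log2 fold change of ABA over mock for the 10 BGLU genes in Ws (blue) and rop10-1 (brown), with bars for the 95% interval of the fit without the replicate block and filled points for an adjusted p under 0.05. The filled points belong to BGLU24, at 3.06 and 3.48, and the unfilled points of BGLU45 lie at 1.14 and 0.91.

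Counted over the family, limma called 1 of 10 members in Ws and 1 of 10 in rop10-1, BGLU24 each time, where 6.54% of all tested probe sets were called in each genotype (4.05% and 4.03% upwards). The call of BGLU24 cannot support a count over the family, since the gene passed the low limit only through its ABA arrays. Among the other 9, whose mock arrays alone averaged above the limit, limma without the block called 0 in each genotype. In the average over genotypes it called 3 of 10, BGLU24, BGLU45 and BGLU16, all higher, against 15.5% of all tested probe sets, 8.21% upwards. Without BGLU24 this was 2 of 9. With the replicate block the counts were 4 in Ws, 3 in rop10-1 and 4 in the average, all higher, against 15.7%, 15.6% and 28% of all tested probe sets (7.91%, 8.11% and 12.5% upwards). Besides BGLU24, the block called BGLU16, BGLU40 and BGLU45 in Ws and in the average, and BGLU16 and BGLU45 in rop10-1. Mock and ABA arrays did not overlap for 1 member in Ws, 3 in rop10-1 and 1 over both genotypes, against 21.2%, 27.9% and 8.16% of all tested probe sets. ABA was higher in 6 of 6 same-numbered pairs for 3 members, against 13.1%. BGLU24 is in each of these counts, and it is the 1 member without overlap in Ws and over both genotypes. The median fold change of the members, BGLU24 among them, was 0.25 in Ws, 0.17 in rop10-1 and 0.22 on average, beside -0.04, -0.05 and -0.05 over all tested probe sets. No member was called lower with ABA, with or without the block, where without it 2.49%, 2.51% and 7.34% of all tested probe sets were.

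Several partners of the family could be followed. Of 14 genes in a list of the ER body and the PYK10 complex, 6 were measured and none was called with ABA without the block. The median of the list was -0.10 in Ws and -0.03 in rop10-1. JAL23, a jacalin-related lectin, went from 127.7 ± 119 to 440.1 ± 239 in Ws and from 95.8 ± 50.1 to 152 ± 88.4 in rop10-1. Its fold change was 1.84 (SE 0.55, adjusted p = 0.0717, 4.72e-05 with the block) in Ws and 0.55 (SE 0.55, adjusted p = 0.646) in rop10-1. Under ABA its difference of rop10-1 minus Ws was -1.44 (SE 0.55, adjusted p = 0.609), which passed the threshold with the block (0.0206). Its average ABA response was 1.20 (adjusted p = 0.058, 3.77e-05 with the block), and its average genotype difference was -0.79 (adjusted p = 0.552, 0.0259 with the block).

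NAI2, a component of the ER body itself, had -0.21 (SE 0.12) on average, and NAI1, the transcription factor that controls ER body genes, had 0.25 (SE 0.19). Of 5 coumarin genes, 2 were measured and neither was called. AT3G13610, which encodes the enzyme F6'H1 of scopoletin synthesis, had -0.58 on average (SE 0.19, adjusted p = 0.058, 0.0192 with the block), and AT3G12900 had -0.05. The lists of sulfur deficiency and sugar starvation had 1 measured gene each, AT1G04770 at 0.02 (SE 0.38) and MCCA at -0.24 (SE 0.15), neither called. No gene of the lists of glucosinolate breakdown and indole glucosinolate synthesis was measured.

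For each member called in the averaged response, the most similar profiles over the 12 arrays were looked up by Pearson correlation of log2 signals. The arrays fall into ABA and mock, so these values describe likeness of profile and carry no test. Closest to BGLU24 were AT3G15350 (r = 0.99), AT1G73480 (0.989) and AT5G09620 (0.985), with averaged fold changes of 1.23, 1.83 and 1.14. Closest to BGLU45 were GT72B1, which encodes a glucosyltransferase of phenolic compounds (0.97, averaged fold change 1.03), AT1G17830 (0.967) and AT1G28260 (0.96). Closest to BGLU16 were AT1G02460 (0.963), AT3G04000 (0.961) and AT5G37980 (0.96).

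The comparison of the genotypes asked what the rop10-1 mutation changes. No member was called by limma in mock, under ABA or on average, where 0.0314%, 0.0188% and 0.0377% of all tested probe sets were called. At an unadjusted limma p under 0.05 the member counts were 0, 0 and 1, beside 3.73%, 7.16% and 9.57% of all tested probe sets. With the replicate block they were 0, 0 and 1 at an adjusted p under 0.05, beside 0.044%, 0.27% and 1.43%. The arrays of the genotypes overlapped for every member in all 3 comparisons, while 9.4%, 10.9% and 0.402% of all tested probe sets had no overlap. The median difference of the members, rop10-1 minus Ws, was -0.07 in mock and -0.19 under ABA, beside 0.00 over all tested probe sets in both.

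BGLU40 was the member called with the block, lower in rop10-1, as were 0.521% of all tested probe sets. Its level was lower in rop10-1 in 6 of 6 same-numbered pairs, a pattern shown by 4.27% of all tested probe sets. The difference within a number was -0.23, -0.48 and -0.10 in mock and -0.59, -0.86 and -0.80 under ABA. The averaged difference was -0.51 (SE 0.31, adjusted p = 0.645, 0.0402 with the block). The blocked call stood close to the threshold: it was kept with 2 of the 12 arrays left out and lost with each of the other 10 (adjusted p up to 0.123). The averaged difference ranged from -0.58 to -0.42 over these fits.

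BGLU44 was likewise lower in rop10-1 in 6 of 6 pairs. It read 5578.9, 4790.8 and 3869.4 in Ws mock against 4142.8, 2439.9 and 3446.4 in rop10-1 mock. Under ABA it read 6319, 3977.6 and 4300.3 in Ws against 5328.8, 3300 and 3191 in rop10-1, and the genotypes overlapped in both treatments. The averaged difference was -0.42 (95% interval -0.81 to -0.03, adjusted p = 0.495), and with the block the adjusted p was 0.0503.

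**Figure D4:**
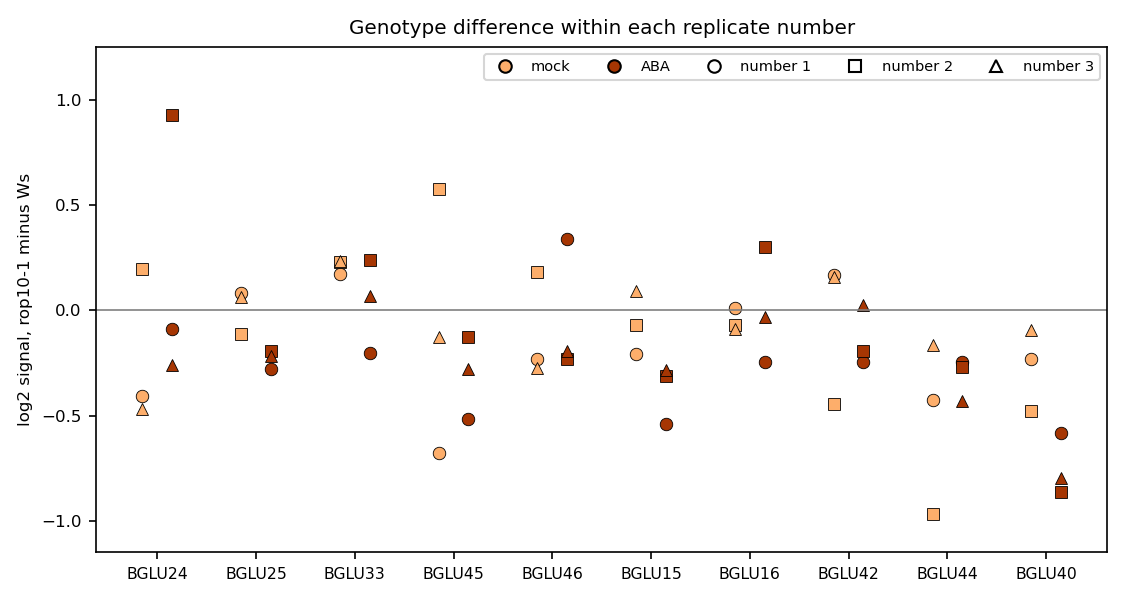
Log2 signal of rop10-1 minus Ws within each replicate number for the 10 BGLU genes, in mock (light) and under ABA (dark), with marker shapes for the numbers. The 6 points of BGLU40 and of BGLU44 all lie below 0, while those of the other 8 genes lie on both sides.

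BGLU24, the member with the large ABA response, had a genotype difference of -0.23 (SE 0.42) in mock and 0.19 (SE 0.42) under ABA, and an interval of -0.67 to 0.63 on average. BGLU33 had 0.12 on average (95% interval -0.17 to 0.42). The test of whether the ABA response differs between the genotypes called none of the 10 members, none at an unadjusted limma p under 0.05 and none with the block, and it called 0% of all tested probe sets, of which 1.89% had an unadjusted p under 0.05. Without the block, the interaction of BGLU24 was 0.42 (SE 0.60, 95% interval -0.88 to 1.72) and that of BGLU40 was -0.48 (SE 0.61). The width of this interval holds for the fit that leaves out the pairing by number. With the block the SE was 0.29 for BGLU24 and 0.21 for BGLU40 (adjusted p = 0.908 for each).

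More members differed by the replicate number in the titles than by genotype. In 7 of the 10 genes, BGLU24, BGLU25, BGLU45, BGLU15, BGLU16, BGLU44 and BGLU40, the array numbered 1 was the highest in all 4 groups, a pattern shown by 10.5% of all tested probe sets. BGLU15 shows it plainly: its arrays numbered 1 read 1301.2, 1126.1, 1227.7 and 839, while the other 2 of each group read 667.7 and 624.6 in Ws mock, 635.2 and 665.7 in rop10-1 mock, 674 and 649.1 in Ws ABA, and 539.9 and 530.1 in rop10-1 ABA.

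In a fit with the group means and the number as terms, number 1 was higher than numbers 2 and 3 for the same 7 genes by limma. Of all tested probe sets 20.7% were called, 10.5% higher and 10.2% lower. The difference was largest for BGLU40 (1.02, SE 0.11, adjusted p = 0.000154), followed by BGLU24 (0.96, SE 0.16), BGLU25 (0.87, SE 0.12) and BGLU15 (0.82, SE 0.08, adjusted p = 8.16e-05). BGLU45 had 0.75 (SE 0.16), BGLU44 0.55 (SE 0.10) and BGLU16 0.38 (SE 0.09). BGLU16 lost this call without Ws mock 1 (adjusted p = 0.0588) or rop10-1 mock 1 (0.0554) and reached 0.05 without Ws ABA 1, and each of the other 6 kept it with any array left out.

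The remaining 3 genes were not called by number: BGLU33 had 0.29 (SE 0.12, adjusted p = 0.118), BGLU42 -0.14 (SE 0.10) and BGLU46 -0.09 (SE 0.11). Between numbers 2 and 3 no member was called, at 1.87% of all tested probe sets, and BGLU40 alone had an unadjusted limma p under 0.05 there (-0.34, SE 0.13). For BGLU25 and BGLU40 the array numbered 2 was the lowest of all 4 groups, as for 4.25% of all tested probe sets.

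**Figure D5:**
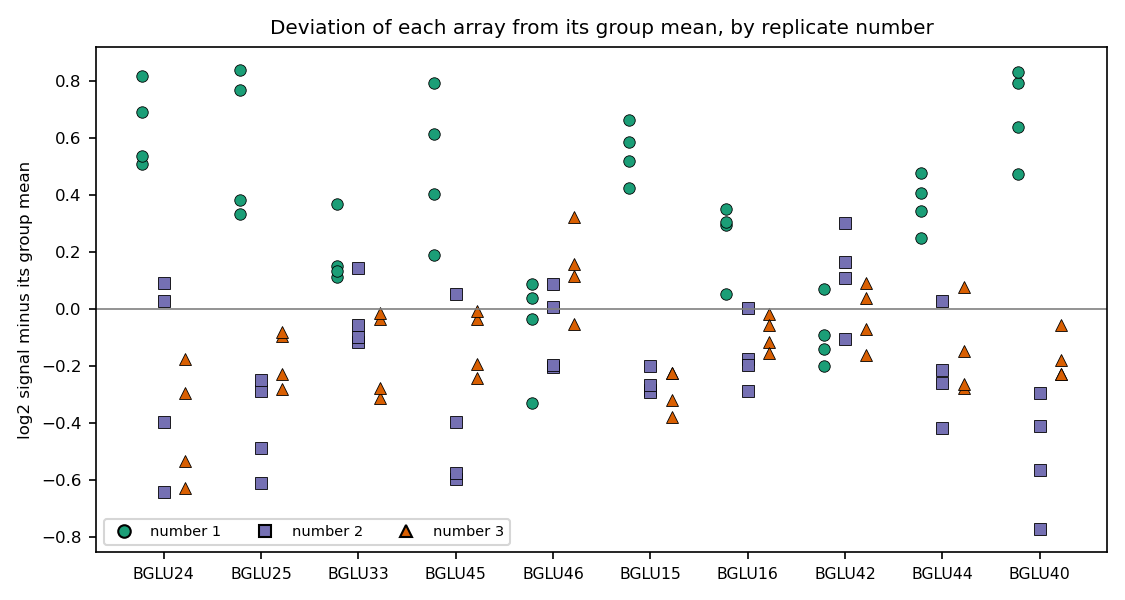
Log2 signal of each array minus its group mean for the 10 BGLU genes, coloured by replicate number, with 4 points per number. For 8 genes all points of number 1 lie above 0, and for BGLU46 and BGLU42 they lie on both sides.

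Other measures were set beside this split by number. The leaf, root hair and guard cell markers were not called between number 1 and the others, with LHCB4.1 at -0.01 (SE 0.06), EXPA7 at 0.13 (SE 0.12) and AT1G22690 at 0.38 (SE 0.19, adjusted p = 0.186). Their summed signal overlapped between the numbers for the root hair and guard cell lists. For the leaf list it was 14650 to 15910 in number 1, 13540 to 14840 in number 2 and 15010 to 19190 in number 3.

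Of the lists above, JAL23 was higher in number 1 by 1.33 (SE 0.14, adjusted p = 0.00014), UGT71B6 by 0.71 (SE 0.12, adjusted p = 0.00196), UGT72E1 by 0.60 (SE 0.16, adjusted p = 0.0192) and JAL22 by 0.47 (SE 0.09, adjusted p = 0.00451). The ABA-induced markers went both ways, COR47 being higher by 0.48 (SE 0.09) and COR15A lower (-0.61, SE 0.12). The log2 3' to 5' ratio of the GAPDH controls was -0.454 to -0.276 in number 1, -0.569 to -0.471 in number 2 and -0.533 to -0.411 in number 3. For ubiquitin the ranges overlapped, at 0.638 to 0.892, 0.711 to 0.982 and 0.752 to 1.106 in the same order. Those of actin overlapped too, at 2.064 to 2.413, 2.186 to 2.658 and 2.239 to 2.612. What the numbers stand for is not stated in the labels, and the part of RNA quality in the split was not tested.

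The other 10 single-gene BGLU probe sets fell below the low limit and were not tested. From the dimmest by mean log2 signal these were BGLU43, BGLU32, BGLU19, BGLU31, BGLU36, BGLU28, BGLU29, BGLU27, BGLU41 and BGLU47. Their medians over the 12 arrays ran from 6.35 for BGLU43 to 62.9 for BGLU47, and the highest single value was 82.5, for BGLU47. Some of them adjoin members: BGLU43 lies beside BGLU44, BGLU27 beside BGLU16 and BGLU28 beside BGLU15. BGLU28, which is known to rise in sulfur deficiency, had 4.2 to 40.9, and BGLU27 had a mean of 26.6 in Ws mock and 50 in rop10-1 ABA. Of the 47 genes that the RefSeq gene table names as BGLU by symbol or synonym, 23 had no entry in the probe table, 2 shared 1 probe set, PYK10 was tested under its own name, and 1 further gene, ATA27, fell below the limit.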

How the data were processed

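The authors deposited probe set intensity on a linear scale. Per the submitters' processing notes GCOS 1.1.1 was used (settings not stated). Trimmed means were equal across arrays, so the values were used as deposited. Of 22810 probe sets, 64 were controls. GEO's platform annotation, possibly old, gave 13513 a single gene, 503 several and 8730 none. Locus names and gene order came from a RefSeq table (TAIR10.1).

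The test was limma 3.58.1 (R 4.3.3) on log2(value + 16), two-sided, with 1 mean per group and an intensity trend. P-values were adjusted by Benjamini-Hochberg over 15923 probe sets, and 0.05 was the threshold. The design text calls the replicates biological. Deviations correlated at 0.215 to 0.711 over 18 same-numbered pairs of arrays in different groups and at -0.475 to 0.11 over 36 pairs of different numbers, so the numbers pair the arrays. The block is printed where it changes a call of a gene named here. The test of ABA in Ws without the block was checked on simulated arrays drawn independently of each other, without the pairing by number. The block, the fit by number, the array weights and the genotype comparisons were not checked in this way.

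The members, lists and tests were chosen with earlier results of these data known. Every member is named, and of each list those called plus up to 2 more, with further genes chosen after their values were seen. The tests by replicate number, the neighbour ratios (described only) and the settings that leave out a whole number or combine the block with a left-out array were added after seeing the data. Alternatives were each array left out, the compared groups alone, the block, array weights, no trend, median centring, quantile normalization and other pseudocounts and filters.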

Additional observations from a re-analysis of the deposited data

How the results depend on the processing

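Without the replicate block, leaving out 1 array gave 1 to 2 called members for ABA in Ws (main value 1), 1 throughout in rop10-1 and 2 to 3 in the average (main value 3). It gave 0 in the 3 genotype comparisons and the interaction, and 6 to 7 for number 1. The replicate block gave 4 in Ws, 3 in rop10-1 and 1 (BGLU40) for genotype on average. The block changed no call of a member beyond those named above. With the block and 1 array left out, the counts were 2 to 4 in Ws, 1 to 3 in rop10-1, 3 to 5 in the ABA average, 0 to 1 between genotypes under ABA and 0 to 2 on average. With the lowest 50% left out they were 0 in Ws, 0 in rop10-1 and 1 in the average, because BGLU24, BGLU45 and BGLU33 are then not tested. Array weights gave 2 and 3, where 1101 and 2481 of all tested probe sets were called. The compared groups alone gave 2 in rop10-1, where 1340 were called. Without all arrays numbered 1 the member counts were 2 in Ws and 2 in rop10-1, beside 957 and 851 of all tested probe sets. With the block they were 4, 2 and 5 in the average, beside 1797, 1556 and 3265. Without number 2 and with the block the member counts were 2 and 2, beside 1148 and 1441 of all tested probe sets. Without number 3 and without the block the average had 1, beside 851. Other pseudocounts, filters and normalizations left these counts within 1.5 times. Of 3143 alternative values for single genes none reversed a call, 80 gained one and 14 lost one. Over all tested probe sets the block moved the calls from 1042 to 2495 in Ws, 1041 to 2486 in rop10-1, 2475 to 4455 in the ABA average, 3 to 43 under ABA and 6 to 227 for genotype on average. Low signal limits BGLU33, BGLU45 and BGLU24 in mock.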
